A study of Mus musculus with 12 samples.

Results

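The 9 genes Tmem119, P2ry12, Cx3cr1, Csf1r, C1qa, C1qb, Aif1, Trem2 and Tyrobp are markers of microglia, and their levels were followed in RNA from astrocytes isolated from mouse midbrain. They were chosen by name, and each had 1 row among the 20614 genes of the expression table. Their levels, set beside those of astrocyte genes, describe how much RNA of this kind was left in a preparation from which microglia had been withdrawn.

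Microglia are the resident macrophages of the brain parenchyma. They arise from yolk sac progenitors under control of the transcription factor PU.1 (gene Spi1), and they survive through the receptor CSF1R, whose ligands are supplied by neurons and astrocytes. They sense nucleotides through P2RY12 and the neuronal chemokine fractalkine through CX3CR1, they are the main source of the complement component C1q in the healthy brain, and they respond to lipids and damaged tissue through TREM2 and its signalling adaptor TYROBP (DAP12). TMEM119 is a membrane protein that sets microglia apart from most other macrophages, and AIF1 (IBA1) is a calcium-binding protein shared by microglia and macrophages.

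The libraries came from male mice at 12 to 14 months of age, 3 of them Cd38+/+, 3 Cd38+/- and 6 Cd38-/-, where Cd38 encodes an ectoenzyme that consumes NAD. The mutant allele is disrupted across exons 2 and 3 of Cd38 and was present in all cells of the mutant animals, so their microglia carried it as well. Striatum, thalamus and substantia nigra were dissected, myelin with oligodendrocytes and endothelial cells were depleted with beads, microglia were then drawn off with anti-CD11b beads, and astrocytes were captured from the remainder with beads against ACSA-2, an epitope of ATP1B2. Values are TPM, the share of a library's transcripts corrected for transcript length, which allows genes to be compared with each other, and the number of reads behind them is unknown. The labels call the libraries separate samples of a genotype, and p-values measure the spread between these samples.

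Cd38 itself followed the labels. It stood at 149, 120 and 105 TPM in the Cd38+/+ libraries, at 90.8, 90.7 and 90.4 TPM in the Cd38+/- libraries and at 8.54 to 21.9 TPM in the Cd38-/- ones. Libraries of the Cd38+/+ genotype stood apart from the rest, since they listed 13160 to 13516 genes above 0, against 15920 to 17906 in the other 9 libraries, and 193 to 336 of 11845 expressed genes at 0, against 4 to 14 in the others. Genotype and this difference in detection cannot be told apart. A microglial gene listed at 0 in a Cd38+/+ library is for that reason given as listed at 0, without a group mean, and a fitted log2 fold change of such a gene depends on the pseudocount and is no measure of size.

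All 9 microglia markers were scarce in every library, while the astrocyte genes were abundant. Over the 12 libraries the mean level of the members ran from 1.56 TPM for Cx3cr1 to 11.3 TPM for C1qb, and they ranked between position 9484 and position 13086 of the 20614 genes. The highest member value of all was 25.9 TPM, for C1qb in a Cd38-/- library. The lowest value of any of 20 astrocyte genes in any library was 168 TPM, for the calcium-binding protein gene S100b in a Cd38+/+ library. Not a single member value reached that level in these 12 libraries.

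**Figure D1:**
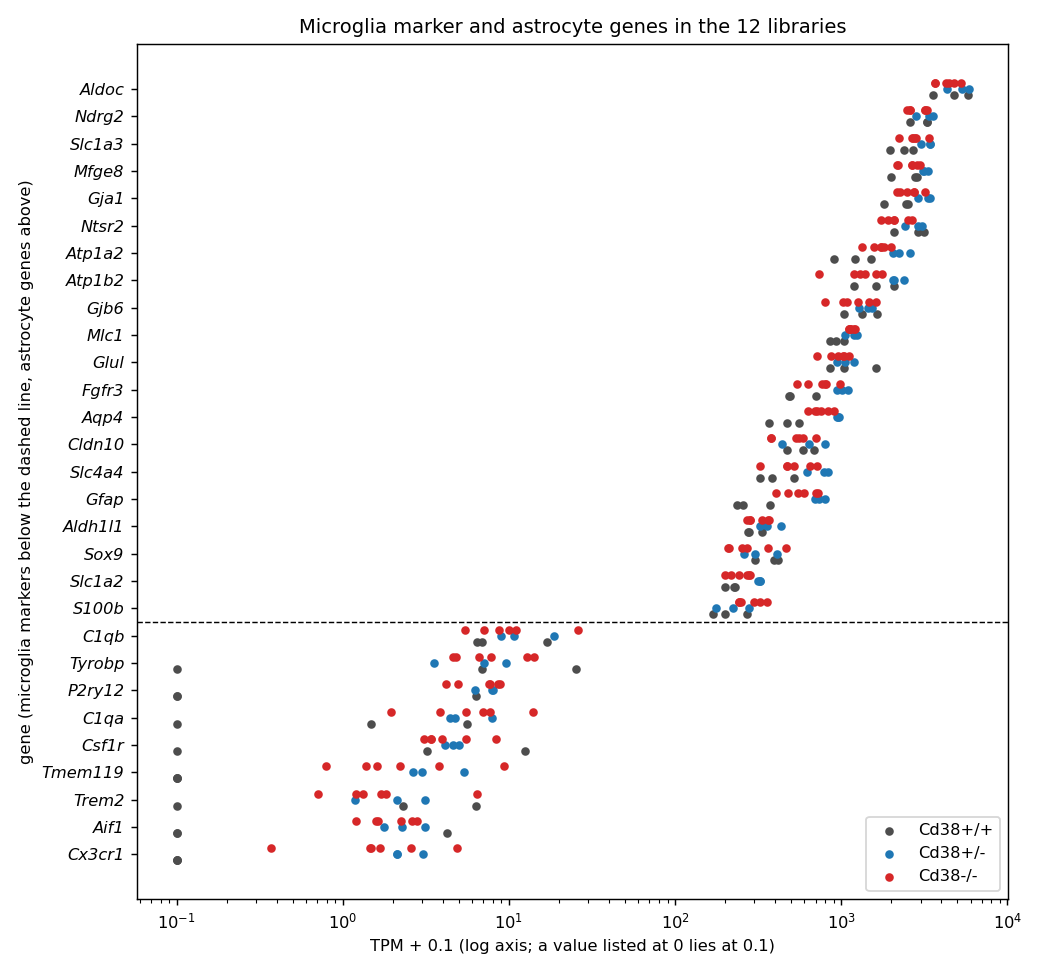
Level of the 9 microglia markers (below the dashed line) and 20 astrocyte genes (above it) in each of the 12 libraries, coloured by genotype, as TPM + 0.1 on a log axis. All member values lie at or below 25.9 TPM and all astrocyte values at or above 168 TPM.

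The member levels were summed in each library and set against the sum of the 20 astrocyte genes. The sum was 42.2, 47.7 and 13.03 TPM in the Cd38+/+ libraries, 39.9, 57.4 and 43.1 TPM in the Cd38+/- libraries, and 30.9 to 85.7 TPM with a median of 42.4 TPM in the Cd38-/- libraries. As a percent of the astrocyte sum this was 0.138%, 0.165% and 0.0579% in Cd38+/+, 0.126%, 0.161% and 0.121% in Cd38+/-, and 0.110% to 0.308% with a median of 0.138% in Cd38-/-. The genotypes overlapped in both measures. Gja1, the gap junction gene used as the astrocyte marker of the isolation, had 2519, 2453 and 1820 TPM in Cd38+/+, 2896, 3396 and 3336 TPM in Cd38+/- and 2167 to 3171 TPM in Cd38-/-. Atp1b2, the target of the astrocyte beads, had 732 to 2398 TPM over the 12 libraries. Itgam, which encodes the CD11b bound by the microglia beads, was low throughout: 2 Cd38+/+ libraries listed it at 0 and the third at 0.70 TPM, while Cd38+/- values were 0.81, 1.5 and 0.98 TPM and Cd38-/- values ran from 0.02 to 1.52 TPM.

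The members differed in how regularly they were found. All 9 were above 0 in each of the 3 Cd38+/- and 6 Cd38-/- libraries. In the Cd38+/+ libraries 6, 5 and 2 of the 9 were above 0, so that 14 of 27 values, or 51.9%, were listed at 0. Among the 3271 genes whose mean level in the mutant libraries lay within the range of the members, 2.04 to 11.7 TPM, the share listed at 0 was 11.2% to 19.1% in the Cd38+/+ libraries and 0.0917% to 0.306% in the others. These genes were chosen by their mean in the mutant libraries, which by itself makes values at 0 rare there. The gap in these shares between the Cd38+/+ and the mutant libraries is therefore set in part by that choice. These genes need not be spread over that range as the members are, and the comparison is a description without a test.

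Among the surface proteins of microglia, Tmem119 and Cx3cr1 were listed at 0 in 3 libraries each, P2ry12 in 2 and Csf1r in 1. Tmem119 was at 0 in each of the 3 Cd38+/+ libraries, with 5.28, 2.55 and 2.90 TPM for Cd38+/- and 0.69, 1.27, 1.51, 2.12, 3.71 and 9.28 TPM, in rising order, in Cd38-/-. The Cd38+/- values lay within the Cd38-/- range. Cx3cr1, the fractalkine receptor gene, was likewise listed at 0 in the 3 Cd38+/+ libraries, with 2.92, 2.03 and 2.01 TPM in Cd38+/- and 0.27 to 4.77 TPM (median 1.48) in Cd38-/-. P2ry12, the ADP receptor gene, was listed at 0 in 2 Cd38+/+ libraries and had 6.23 TPM in replicate 3; it had 7.80, 7.88 and 6.17 TPM in Cd38+/- and 4.06 to 8.71 TPM (median 7.54) in Cd38-/-. The single Cd38+/+ value above 0 fell inside the range of the mutant libraries. Csf1r had 3.11, 12.4 and 0 TPM in Cd38+/+, where replicate 2 was the highest of all 12 libraries, 4.52, 4.04 and 4.90 TPM in Cd38+/- and 2.98 to 8.31 TPM (median 3.58) in Cd38-/-.

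Of the complement genes C1qb was found in all libraries, and C1qa was listed at 0 in 1. C1qb, which encodes a chain of the C1q molecule that starts the classical complement pathway, was the only member above 0 in all 12 libraries, at 6.28, 16.7 and 6.80 TPM in Cd38+/+, 8.85, 18.4 and 10.6 TPM in Cd38+/- and 5.37 to 25.9 TPM (median 9.23) in Cd38-/-. C1qa, for another chain of the same molecule, had 1.38, 5.52 and 0 TPM in Cd38+/+, 4.29, 7.78 and 4.61 TPM in Cd38+/- and 1.85 to 13.8 TPM (median 6.14) in Cd38-/-. Within each genotype the library with the most C1qa was also the one with the most C1qb: replicate 2 in Cd38+/+, replicate 2 in Cd38+/- and replicate 6 in Cd38-/-.

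The lipid receptor Trem2 and its partner Tyrobp were not at the same level. Trem2 had 2.21, 6.27 and 0 TPM in Cd38+/+, 1.09, 3.04 and 2.01 TPM in Cd38+/- and 0.61 to 6.35 TPM (median 1.42) in Cd38-/-. Tyrobp had 25.1, 6.76 and 0 TPM in Cd38+/+, 3.45, 9.45 and 6.93 TPM in Cd38+/- and 4.52 to 14.1 TPM (median 7.11) in Cd38-/-. TYROBP also serves receptors of other myeloid and natural killer cells. Cd38+/+ replicate 1, which had the most Tyrobp, also had the most Ptprc (6.61 TPM), the pan-leukocyte CD45 gene, and a summed blood leukocyte list of 53.4 TPM, and whether such cells account for the Tyrobp value was not tested. Aif1 had 4.13, 0 and 0 TPM in Cd38+/+, 1.66, 2.17 and 3.02 TPM in Cd38+/- and 1.1 to 2.68 TPM (median 1.84) in Cd38-/-. The Cd38+/+ libraries thus held both the highest value and values at 0 for Csf1r, Aif1 and Tyrobp.

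**Figure D2:**
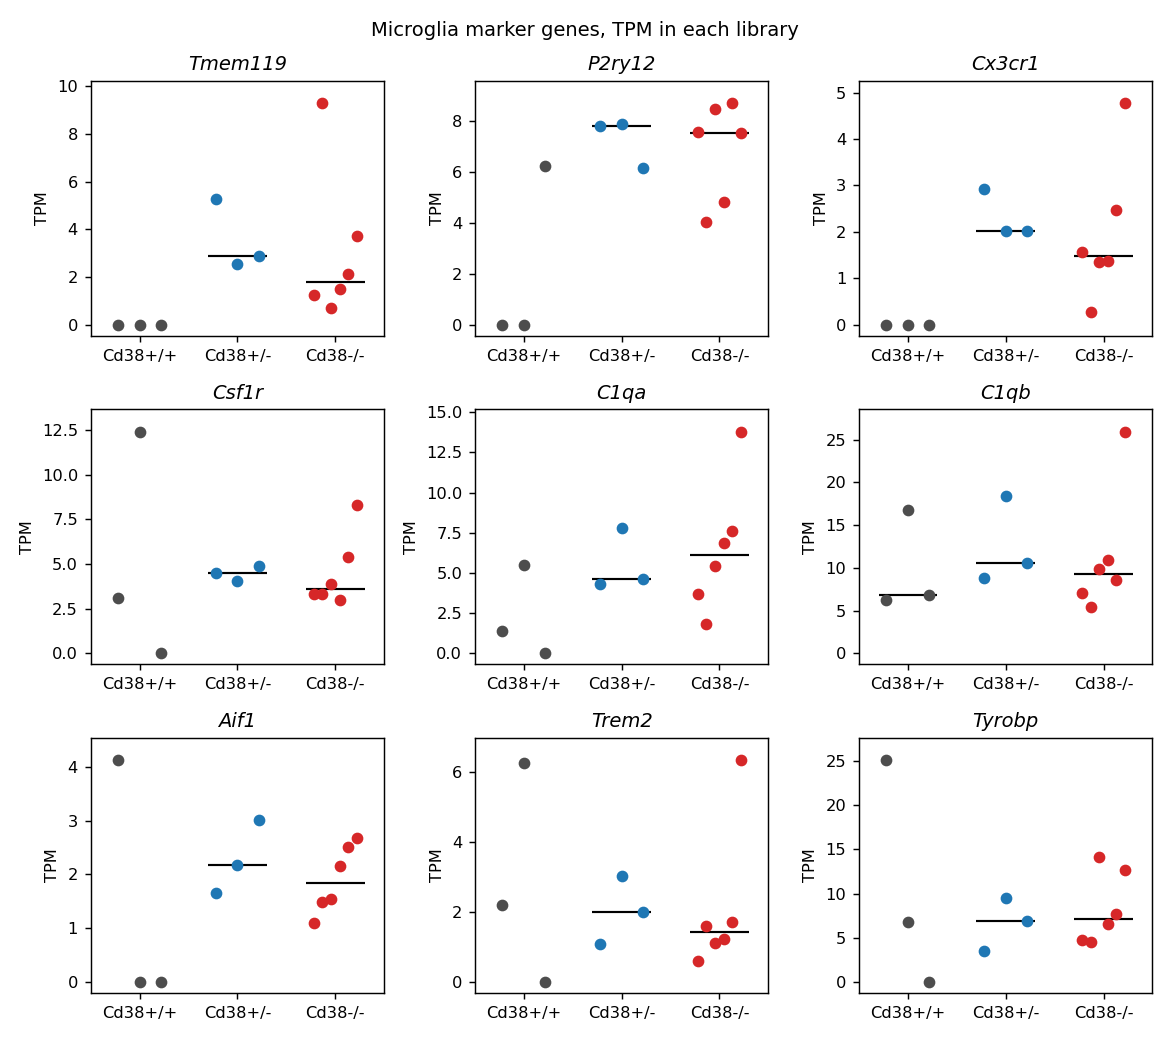
TPM of each member in each library, by genotype, with 1 point per library and a bar at the median, left out where a Cd38+/+ library is listed at 0. Tmem119 and Cx3cr1 lie at 0 in the 3 Cd38+/+ libraries, and the Cd38+/- points overlap the Cd38-/- points for all 9 genes.

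In the mutant libraries the members kept a similar order of level. In Cd38-/- the mean ± SD (n = 6) was 11.3 ± 7.44 TPM for C1qb, 8.38 ± 4.10 for Tyrobp, 6.86 ± 1.95 for P2ry12, 6.54 ± 4.12 for C1qa, 4.53 ± 2.05 for Csf1r, 3.10 ± 3.20 for Tmem119, 2.10 ± 2.12 for Trem2, 1.97 ± 1.54 for Cx3cr1 and 1.91 ± 0.631 for Aif1. No neighbours in this order had ranges that lay apart, and the higher gene of a neighbouring pair was higher in 2 to 5 of the 6 libraries. In Cd38+/- (n = 3) C1qb, at 12.6 ± 5.12 TPM, lay above the range of P2ry12, at 7.28 ± 0.965 TPM, and the other neighbours overlapped. P2ry12 and Csf1r varied less than C1qb between libraries: their SD was 1.95 and 2.05 TPM in Cd38-/- against 7.44 TPM.

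Genotypes were compared with limma on log2(TPM + 1) over all genes with a mean above 5 TPM in at least 1 compared genotype, and DEGs were the genes that changed by 1.2-fold or more with q (Storey) below 0.05. Tmem119, Cx3cr1, Aif1 and Trem2 did not reach that level in any genotype, Csf1r reached it only in Cd38+/+, and P2ry12, C1qa, C1qb and Tyrobp entered all comparisons. Against Cd38+/+, P2ry12 and C1qa passed the filter only through the mutant libraries, where they were higher, so their difference itself let them into the test and the count of called members supports nothing. RNA from fewer microglia and less RNA per microglial cell cannot be told apart in such bulk samples. The comparisons of Cd38+/- and of Cd38-/- with Cd38+/+ share the 3 Cd38+/+ libraries.

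In Cd38-/- against Cd38+/+ 1 of the 5 tested members, P2ry12, was called. The background was 8.28% of the 11722 genes tested, or 6.42% for genes higher in Cd38-/-, and the number of DEGs over all genes, 970, ranged from 74 to 3119 when single libraries were left out. P2ry12 rose by a log2 fold change of 1.98 ± 0.605 (SE; limma, q = 0.0479, n = 6 and 3), with 4 of the 6 Cd38-/- libraries above the highest Cd38+/+ library. The call was lost under 15 of 19 other settings, with q from 0.000865 to 0.356 over them, and the log2 fold change was 0.84 with a pseudocount of 5 and 4.07 with one of 0.1, since 2 of the 3 Cd38+/+ libraries were at 0. C1qa had 1.41 ± 0.630 (q = 0.112), Tyrobp 0.56 ± 0.790 (q = 0.392), Csf1r 0.47 ± 0.670 (q = 0.396) and C1qb 0.13 ± 0.453 (q = 0.507) on the same scale. C1qa passed the test once Cd38+/+ replicate 2 was left out (log2 fold change 2.11, q = 0.0276). The positive values of Csf1r and Tyrobp rest on Cd38+/+ replicate 3, where both were listed at 0, and were -0.49 and -0.71 without it.

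In Cd38+/- against Cd38+/+ none of the 5 tested members was called by limma, and the background was 0% of 11763 genes, while 1586 of them had p below 0.05 before adjustment. P2ry12 was the only member among these, with a log2 fold change of 2.09 ± 0.882 (limma, q = 0.226). The others had 1.36 ± 0.815 for C1qa (q = 0.301), 0.52 ± 0.924 for Csf1r (q = 0.511), 0.38 ± 0.504 for C1qb (q = 0.472) and 0.29 ± 1.07 for Tyrobp (q = 0.580). With all 12 libraries in one fit P2ry12 was called (q = 0.0335). Without Cd38+/+ replicate 3 Csf1r had -0.44 and Tyrobp -0.99.

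Between the mutant genotypes none of the 4 tested members was called by limma. The background was 0.0346% of 11563 genes, or 0.0173% for genes higher in Cd38-/-. The log2 fold changes of Cd38-/- against Cd38+/- were -0.11 ± 0.240 for P2ry12, 0.06 ± 0.425 for C1qa, -0.25 ± 0.388 for C1qb and 0.27 ± 0.372 for Tyrobp (q from 0.597 to 0.704), with a median of -0.03 beside -0.02 over all genes, and none of the 4 was at an unadjusted p under 0.05. These differences were no larger than 1 standard error.

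The 4 members under the level filter could only be compared by ranges and exact tests. In both comparisons with Cd38+/+, 2 of the 9 members, Tmem119 and Cx3cr1, were higher in every mutant library than in any Cd38+/+ library. The background for such a gap in that direction was 19.8% of 17204 genes for Cd38+/- (24.8% in either direction) and 11.7% of 18906 genes for Cd38-/- (14.1% in either direction). Between the mutant genotypes none of the 9 members had such a gap, beside 3.99% of 18984 genes in either direction. Exact permutation tests (two-sided) on the same log scale gave p = 0.0238 for Tmem119, p = 0.0238 for Cx3cr1 and p = 0.0357 for P2ry12 in Cd38-/- against Cd38+/+, where the smallest p that 6 against 3 libraries allow is 0.0119, and the adjusted p over the 27 tests was 0.321 for each. Aif1 had an exact permutation p of 0.214 (adjusted 0.723) there. Trem2 was slightly lower in Cd38-/- (log2 difference -0.079, exact permutation p = 0.929, adjusted 0.964). For the remaining members the exact permutation p ran from 0.0952 (C1qa) to 0.821 (C1qb). With 3 libraries against 3 no p under 0.1 is possible, and Tmem119 and Cx3cr1 both reached that value. Without the filter on low values limma called Tmem119 and Cx3cr1 in both comparisons with Cd38+/+ (q from 0.00598 to 0.0340), and P2ry12 in Cd38-/- as well (q = 0.0461), beside 3.85% of 17204 genes for Cd38+/- and 12.1% of 18906 genes for Cd38-/-. These calls rest on libraries where the gene is listed at 0.

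The ratio of Tmem119 to Gja1, the marker pair of the microglial and astrocyte fractions, was taken as the difference of log2(TPM + 1) in each library. It was -11.3, -11.3 and -10.8 in Cd38+/+, where it is set by the pseudocount because Tmem119 was listed at 0. It was -8.85, -9.90 and -9.74 in Cd38+/- and -10.4 to -7.72 with a median of -10.0 in Cd38-/-. The mutant libraries lay above the Cd38+/+ libraries without overlap, by 1.63 for Cd38+/- (two-sided exact permutation test, p = 0.1, the smallest possible, adjusted over the 3 comparisons 0.15) and by 1.55 for Cd38-/- (exact permutation p = 0.0595, adjusted 0.15). Cd38-/- and Cd38+/- overlapped and differed by -0.08 (exact permutation p = 0.940, adjusted 0.940).

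The 6 Cd38-/- libraries, the largest group, also showed how the members varied with each other. Replicate 6 had the highest level of 6 of the 9 members, Cx3cr1, Csf1r, C1qa, C1qb, Aif1 and Trem2, at 1.74 times (Aif1) to 5.16 times (Trem2) the median of the other 5 libraries. Its summed level of 85.7 TPM compared with 46.9 TPM for the next highest library, and without it the mean of the group fell from 46.7 to 38.9 TPM. P2ry12 did not share this: its 7.53 TPM in replicate 6 was 0.996 times the median of the others. Replicate 2 had the lowest level of 5 members, P2ry12, Cx3cr1, C1qa, C1qb and Tyrobp, and yet the highest Tmem119, 9.28 TPM or 6.15 times the median of the other 5. Tmem119 and Cx3cr1 were 9.28 and 0.27 TPM in that library and 0.69 and 1.36 TPM in replicate 3.

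The pairwise correlations of log2(TPM + 1) over these 6 libraries were taken next. Pearson's r was above 0 for the 28 pairs without Tmem119, from 0.0933 to 0.938 with a median of 0.685, and from -0.630 to 0.430 with a median of -0.201 for the 8 pairs with Tmem119. The closest pairs were Cx3cr1 with C1qa (r = 0.938, exact permutation p = 0.0181, adjusted over the 36 pairs 0.271; Spearman's rho = 0.83, exact permutation p = 0.0583, adjusted 0.525) and C1qa with C1qb (r = 0.914, exact permutation p = 0.0139, adjusted 0.271; rho = 0.83, exact permutation p = 0.0583, adjusted 0.525). None of the 36 pairs passed after adjustment, and 6 had an unadjusted p under 0.05 for r and 1 for rho. Without the 2 libraries farthest from the median of the first gene, the r of Cx3cr1 with C1qa was 0.455 and that of C1qa with C1qb 0.679, and the median of the 28 pairs fell to 0.227, with 16 of them above 0. The median of the 8 pairs with Tmem119 turned to 0.480, with 5 of them above 0, so its negative median did not hold. The pairs with Tmem119 all left out replicates 2 and 6, while the libraries left out varied among the other pairs. Each r then rests on few libraries, and the medians with and without Tmem119 cannot be compared directly. For both named pairs the libraries left out were replicates 2 and 6, so these relations rest in part on those 2 libraries.

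**Figure D3:**
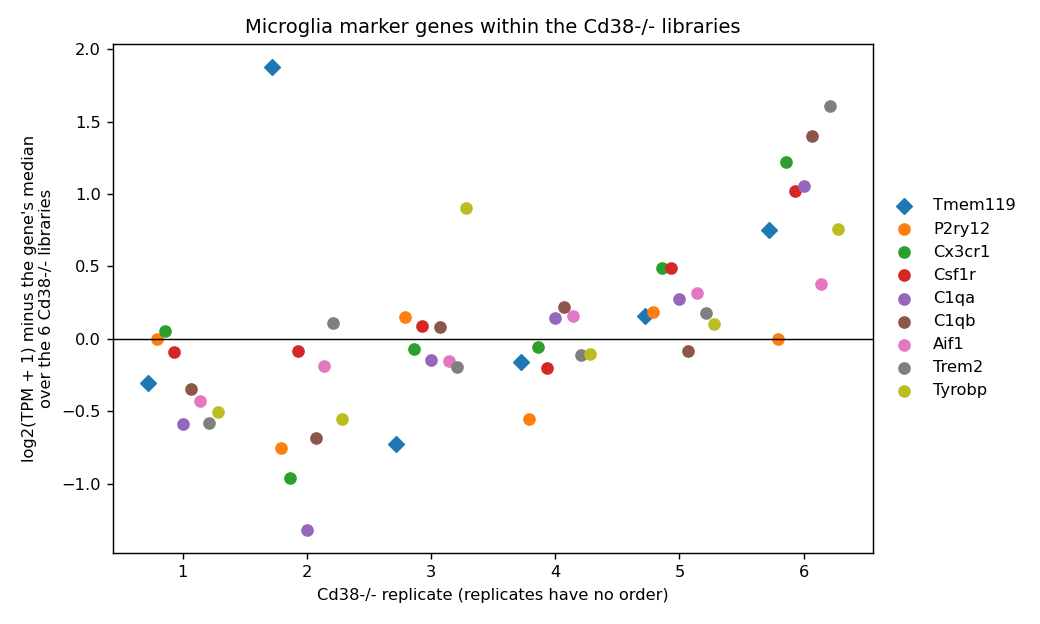
Level of each member in the 6 Cd38-/- libraries as log2(TPM + 1) minus the gene's median over these libraries, with Tmem119 as diamonds. Most members are highest in replicate 6 and low in replicate 2, where Tmem119 reaches its highest level of 9.28 TPM.

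Of the other lists, some were at their highest among the Cd38-/- libraries in replicate 6 and some were not. The summed list of 16 neuronal genes was 187 TPM there and 77.5 to 98.8 TPM in the other Cd38-/- libraries, and the oligodendrocyte precursor list was 200.2 TPM against 52.8 to 128 TPM. The part of these cell types in the microglial values was not tested. The border macrophage list, at 12.9 TPM, lay within the 8.85 to 13.8 TPM of the other Cd38-/- libraries. Its most abundant genes were Pf4, Stab1 and Folr2, while Mrc1 and Cd163 were at most 0.43 and 1.15 TPM in any library. A wider list of 46 microglial and macrophage genes summed to 542 TPM in replicate 6, little above the 452 to 535 TPM of the others. The endothelial list, at 925 TPM, lay within the 599 to 1931 TPM of the others. The mural and fibroblast list was lowest there, at 538 TPM against 743 to 1172 TPM.

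The genes most like the members in their variation within genotypes were looked up among 11840 genes with a mean above 5 TPM in a genotype, by Pearson's r with the mean profile of the members over the 12 libraries. They were Immp2l (r = 0.889), Ctss (0.876), C1qc (0.852), H1f0 (0.834), Zwint (0.834), Nudt18 (0.833), Pllp (0.830), Fam107a (0.830), Kif5a (0.83) and Rtn2 (0.824). Ctss encodes the lysosomal protease cathepsin S of microglia and macrophages, and C1qc the remaining chain of C1q. Of the 17 other microglial and macrophage genes among the candidates these were the 2 in the top 10; 12 had r above 0 and 5 below, with a median of 0.275 beside -0.129 over all candidates. Kif5a encodes a neuronal kinesin and Pllp a myelin protein. All genes of a library share its isolation and its depth, which is unknown and may differ between libraries. Ctss reached 22.4 TPM, C1qc 18.2 TPM and Kif5a 262 TPM in Cd38-/- replicate 6, each above the other Cd38-/- libraries.

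A wider list of 46 microglial and macrophage genes held genes as low as the members and genes far above them. Ctss and C1qc of this list reached 22.4 and 18.2 TPM in Cd38-/- replicate 6. The receptor genes P2ry13, Siglech and Fcrls were listed at 0 in the 3 Cd38+/+ libraries and at most at 1.24, 2.10 and 2.04 TPM in the others, and 13 of the 46 were listed at 0 in the 3 Cd38+/+ libraries, while 44 were above 0 in the 9 mutant libraries. Among the more abundant genes of this list were Lgmn (130 to 240 TPM) and Vsir (17.6 to 37.5 TPM). Lgmn, a lysosomal protease gene, is strongly expressed by microglia but is also used by other brain cells, and it stood far above the 9 members in all 12 libraries. Of the 17 genes of this list that were tested, 1 was called in Cd38-/- against Cd38+/+, beside 8.28% of all genes tested. It was Sall1, a transcription factor of microglial identity that is also used by neural progenitors, at 2.13, 9.81 and 6.26 TPM in Cd38+/+ and 10.9 to 25.0 TPM in Cd38-/- (limma, log2 fold change 1.44 ± 0.405, q = 0.0398). None of the 17 was called in Cd38+/- against Cd38+/+, where 1 had an unadjusted p under 0.05 by limma, and none of 14 between the mutant genotypes, where there was no such gene.

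Spi1, the gene of PU.1, was listed at 0 in the 3 Cd38+/+ libraries, had 2.38, 0.75 and 0.17 TPM in Cd38+/- and lay between 0.32 and 1.00 TPM in Cd38-/-. PU.1 binds sites built on a GGAA core, often written GAGGAAGT. RefSeq promoters (GRCm38.p6, 250 bases before to 50 after the start) were at hand for 5 of the 9 members, P2ry12, Cx3cr1, C1qb, Aif1 and Trem2. They are shown for P2ry12, the member called in Cd38-/-, and for C1qb, the most abundant one, on the strand of the gene, with AGGAAGT and GAGGAA on either strand in capitals. The windows are chr3:59262936-59263235 for P2ry12 and chr4:136886151-136886450 for C1qb, both on the minus strand.
P2ry12: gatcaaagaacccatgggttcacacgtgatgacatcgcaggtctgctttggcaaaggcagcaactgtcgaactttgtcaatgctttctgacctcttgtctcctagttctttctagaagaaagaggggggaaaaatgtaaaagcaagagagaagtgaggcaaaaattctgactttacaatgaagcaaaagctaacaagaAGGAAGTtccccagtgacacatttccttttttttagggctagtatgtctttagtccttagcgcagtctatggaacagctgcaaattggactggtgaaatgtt
C1qb: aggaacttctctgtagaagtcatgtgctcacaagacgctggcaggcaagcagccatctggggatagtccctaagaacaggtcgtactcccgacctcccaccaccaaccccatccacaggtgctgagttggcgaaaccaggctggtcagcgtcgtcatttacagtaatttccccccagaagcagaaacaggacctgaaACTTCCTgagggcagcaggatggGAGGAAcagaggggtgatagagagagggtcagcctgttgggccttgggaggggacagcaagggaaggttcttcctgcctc
The full GAGGAAGT was in none of the 5 member promoters and in 3.20% of all 32851 promoters, counting both strands. The shorter AGGAAGT, which it contains, was in 2 of the 5 (P2ry12 and C1qb) and in 9.35% of all, and GAGGAA, which overlaps both, was in 3 of the 5 (C1qb, Aif1 and Trem2) and in 28.3% of all. The letters alone describe these windows and say nothing of binding.

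The position of some members bears on their values. P2ry12 (ENSMUSG00000036353, chr3:59216272-59262871, minus strand, GRCm38 with GENCODE vM21) lies within Med12l on the opposite strand, and 9 of its 2546 exonic bases, 0.353%, are exonic in Med12l as well. Med12l had 0.29, 13.6 and 3.57 TPM in Cd38+/+ and 2.99 to 8.92 TPM in the mutant libraries. For Csf1r (ENSMUSG00000024621, chromosome 18) 873 of 5774 exonic bases, 15.1%, are shared with Hmgxb3 on the opposite strand, a gene with 8.33 to 35.8 TPM over the 12 libraries. Cx3cr1 (ENSMUSG00000052336, chr9:119901616-120069879) shares 78 of 4505 exonic bases with the antisense gene Gm33858. Strand-specific counting is not given in the sources used here, so reads from such stretches cannot be assigned with certainty. Tmem119 (chr5:113793729-113800516), C1qa (chr4:136895917-136898803), C1qb (chr4:136880129-136886187), Aif1 (chr17:35170991-35176068), Trem2 (chr17:48346401-48354147) and Tyrobp (chr7:30413760-30417585) overlap no other gene of this annotation.

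The genes that signal to microglia, or that build on the members, were read as lists. Of 11 ligand and complement genes 8 were tested, and 2 were called in Cd38-/- against Cd38+/+, both higher. The share of all genes called there was 8.28%, or 6.42% for genes higher in Cd38-/-. Il34, which encodes a ligand of CSF1R, had 7.20, 5.19 and 4.06 TPM in Cd38+/+ and 10.1 to 13.8 TPM in Cd38-/- (limma, log2 fold change 1.01 ± 0.274, q = 0.0362). C4b, a complement component that acts downstream of C1q and is made by astrocytes, had 92.9, 131 and 69.0 TPM in Cd38+/+ and 144 to 226 TPM in Cd38-/- (0.86 ± 0.207, q = 0.0281). Csf1, the other ligand of CSF1R, had 57.1, 59.5 and 59.1 TPM in Cd38+/+ and 38.6 to 56.1 TPM in Cd38-/- (-0.31 ± 0.165, q = 0.153). Cx3cl1, the ligand of CX3CR1, had 49.9, 64.9 and 30.8 TPM in Cd38+/+ and 45.1 to 80.1 TPM in Cd38-/- (0.30 ± 0.242, q = 0.266). Cx3cl1 was above Cx3cr1 and Csf1 above Csf1r in all 12 libraries, whereas Il34, at 5.19 TPM, was below Csf1r in Cd38+/+ replicate 2. Apoe, which encodes a lipoprotein bound by TREM2, had 31311 to 50487 TPM over the 12 libraries, and Clu had 5481 to 7706 TPM.

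Of 19 genes that rise in microglia in disease, some of them in a TREM2-dependent manner, 13 were tested. In Cd38-/- against Cd38+/+ Spp1 (osteopontin) fell, from 35.2, 32.4 and 40.0 TPM in Cd38+/+ to 11.0 to 23.7 TPM (limma, log2 fold change -1.20 ± 0.251, q = 0.0195), and Lyz2, a lysozyme gene of myeloid cells, rose, from 7.32, 0 and 0 TPM to 4.82 to 24.9 TPM (2.35 ± 0.712, q = 0.0469; this size depends on the 2 libraries at 0, and Lyz2 passed the level filter only through Cd38-/-). The most abundant of this list, Fth1 (3927 to 9601 TPM), Cd63 (856 to 1325 TPM) and Ctsd (893 to 1195 TPM), are used by all brain cells and were not called. Cst7 and Itgax, which are closer to microglia, were at most 4.33 and 0.27 TPM in any library. Of 18 genes induced in microglia by dissociation 12 were tested, and the early response genes Nfkbia (-0.55 ± 0.149, q = 0.0362) and Junb (-1.03 ± 0.239, q = 0.0249) were lower in Cd38-/- than in Cd38+/+. They are induced in astrocytes as well. Of the disease and dissociation lists 2 of 13 and 2 of 12 tested genes were thus called, beside 8.28% of all genes tested. No gene of these 3 lists was called by limma in Cd38+/- against Cd38+/+, where 2, 3 and 3 of the tested genes had an unadjusted p under 0.05, or between the mutant genotypes, where 1, 3 and 2 had.

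The sum of the 9 members was also set beside marker lists of other cell types. The summed oligodendrocyte list ran from 1340 to 17867 TPM over the 12 libraries, with Mbp (598 to 13420 TPM) ahead, the ependymal and choroid list from 2813 to 10048 TPM, the endothelial list from 563 to 3000 TPM, the mural and fibroblast list from 538 to 1172 TPM, the oligodendrocyte precursor list from 52.8 to 220 TPM and the neuronal list from 74.5 to 187 TPM. Each of the ranges of the first 4 lists lay above the 13.03 to 85.7 TPM of the 9 members. The 46 further microglial and macrophage genes, among them Lgmn with 130 to 240 TPM, summed to 382 to 579 TPM, above the neuronal and precursor lists in all 12 libraries and overlapping the range of the mural and fibroblast list, so the place of microglial RNA in this order depends on the list. The border macrophage list summed to 0.08 to 18.7 TPM, led by Pf4, which platelets also express, and then by Stab1 and Folr2. Its 18.7 TPM, in Cd38+/+ replicate 3, lay above the 13.03 TPM of the 9 members in that library. The blood leukocyte list summed to 4.85 to 53.4 TPM, led by Nkg7. The most abundant genes were Rarres2, Ccdc153 and Tmem212 of the ependymal and choroid list, Ly6c1, Itm2a and Cldn5 of the endothelial list, Vtn, Pdgfrb and Dcn of the mural and fibroblast list, and Snap25, Eno2 and Stmn2 of the neuronal list. The lists differ in their number of genes and in how strongly each gene is expressed by its cell type, so the sums rank RNA and not cells. In Cd38-/- against Cd38+/+ limma called 3 of 8 ependymal and choroid genes higher (Ttr, Folr1 and Clic6), 2 of 20 astrocyte genes higher (Gfap and Aqp4), 1 of 6 precursor genes lower (Neu4) and none of 9 oligodendrocyte, 11 endothelial, 10 mural and fibroblast and 9 neuronal genes, where 1, 1, 3 and 1 had an unadjusted p under 0.05. Over all genes tested in that comparison 8.28% were called. No border macrophage gene reached the level filter.

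**Figure D4:**
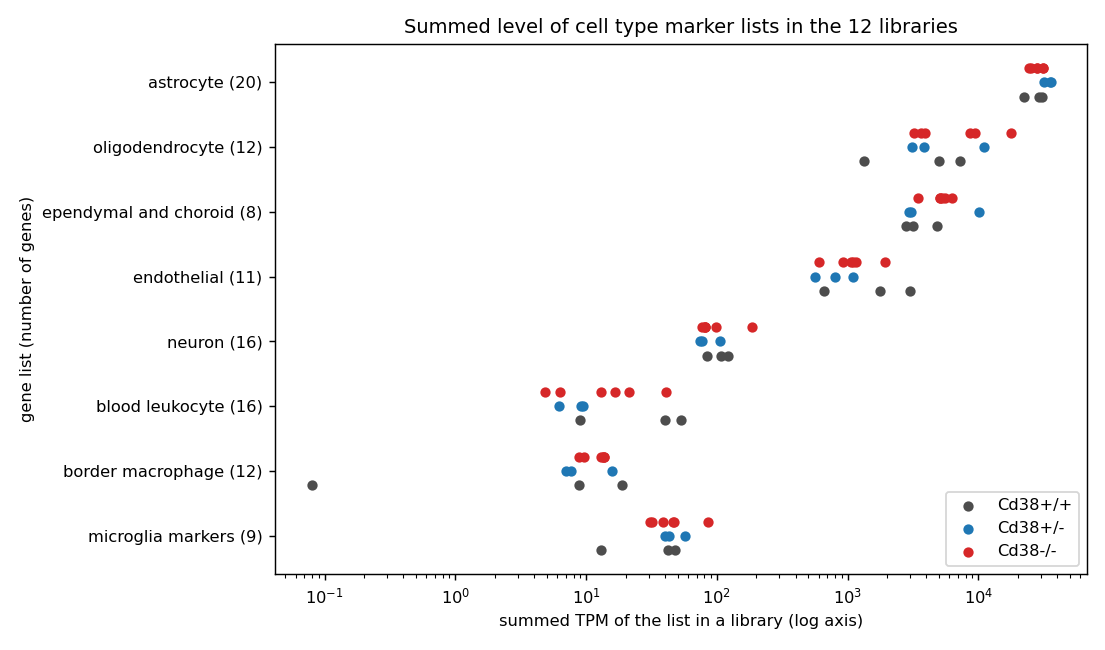
Summed TPM of 8 cell type marker lists in each library, on a log axis, coloured by genotype, with the number of genes of each list in parentheses. The 9 microglia markers sum to 13.03 to 85.7 TPM, below the oligodendrocyte, ependymal and choroid, and endothelial lists in all 12 libraries.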

How the data were processed

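RNA-seq of bead-isolated midbrain astrocytes in 12 libraries was analysed. Per the submitters' processing notes, reads were trimmed with Trim Galore 0.6.4, aligned to mm10 with STAR 2.7.1a and quantified with RSEM 1.2.28; the annotation is not given in the sources used here. The deposited TPM values, given by the authors to 2 decimals, sum to 1000000 in each library, hold no counts and were not pooled. Depth is therefore unknown, and a value at 0 sets no upper limit.

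Genes with a mean TPM above 5 in a compared genotype were fitted as log2(TPM + 1) with limma 3.58.1 (trend; R 4.3.3), with Storey q-values (lambda 0.05 to 0.95). DEGs had q under 0.05 and a change of at least 1.2-fold. On simulated 4-fold changes 109 of 194, 167 of 195 and 194 of 197 genes were recovered in the Cd38+/-, Cd38-/- and mutant comparisons, over 11411, 11407 and 11441 genes. Exact permutation tests used scipy 1.17.1. Genotypes came from the sample labels.

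The members, the 14 gene lists and the tests were chosen with earlier results of these data known. Named genes were the 9 members, Cd38, Gja1, Mbp, Itgam and Atp1b2, the 3 most abundant genes of each list, list genes called as DEGs, and the 10 genes most like the members; Spi1, P2ry13, Siglech, Fcrls, Ptprc, Mrc1, Cd163, Cst7, Itgax, Csf1, Cx3cl1, S100b, Med12l and Hmgxb3 were added for their role or position after their values were seen. Some genes that this rule names are not reported here. The alternatives were pseudocounts, filters, adjustment, trend, weights, scalings, a common fit, a replicate block and leaving out each library. Positions came from GENCODE vM21 (9 of 9 members matched by gene ID).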

Additional observations from a re-analysis of the deposited data

Results flagged for a closer look

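Within the 6 Cd38-/- libraries, 4 of 11 series of values had a library that lay apart from the rest by Dixon's test at its 95% level, which flags about 1 in 20 groups by chance. Replicate 2 stood out for Tmem119 with 9.28 TPM, where the other 5 libraries had 0.69 to 3.71 TPM. Replicate 6 stood out for C1qb with 25.9 TPM (others 5.37 to 10.9 TPM), for Trem2 with 6.35 TPM (others 0.61 to 1.72 TPM) and for the summed level of the 9 members with 85.7 TPM (others 30.9 to 46.9 TPM). The last 3 series share the same library and overlap, so they are not separate observations. Replicate 6 did not stand out for Tmem119, where its 3.71 TPM was the second highest, or for P2ry12. The groups of 3 libraries were not tested in this way.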

How the results depend on the processing

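The P2ry12 call in Cd38-/- against Cd38+/+ was the result most dependent on the settings. The count of members called there was 1 and became 0 with a pseudocount of 5, with at least 1 TPM in every compared library, and with Benjamini-Hochberg adjustment, no trend, library quality weights, median-ratio scaling, scaling to the astrocyte list and the replicate block, and 3 with no filter; it ranged from 0 to 1 when 1 library was left out, and P2ry12 kept its call only without Cd38+/+ replicate 3. In Cd38+/- against Cd38+/+ the count was 0 and became 2 with no filter and 1 with all 12 libraries in one fit; between the mutant genotypes it was 0 throughout. The cause was not tested.

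DEGs over all genes were 663 (no filter), 9 (no trend), 30 (quality weights), 225 (astrocyte scaling), 1464 (all 12) and 4 (replicate block) in Cd38+/- against Cd38+/+, against 0, and 0 to 10 without single libraries. In Cd38-/- against Cd38+/+, against 970, they were 2283 (no filter), 326 (Benjamini-Hochberg), 1 (quality weights), 270 (astrocyte scaling), 1822 (all 12) and 2 (replicate block), and 74 to 3119 without single libraries. Between the mutant genotypes, against 4, they were 3120 (quality weights), 1 (median-ratio scaling), 1326 (astrocyte scaling), 1 (all 12) and 2 (replicate block), and 0 to 93 without single libraries.

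Member fold changes that turned sign were, on the log2 scale, -0.0011 for C1qb (astrocyte scaling) and -0.094 for Tyrobp (pseudocount 5) in Cd38+/- against Cd38+/+, -0.29 for C1qb (replicate block) in Cd38-/- against Cd38+/+, and between the mutant genotypes 0.10 and 0.14 for P2ry12, 0.13 and 0.0090 for C1qb (quality weights and astrocyte scaling) and -0.53 for C1qa (replicate block). Leaving out single libraries gave -0.44 to 0.58 for Csf1r and -0.99 to 1.36 for Tyrobp in Cd38+/- against Cd38+/+, -0.49 to 0.55 for Csf1r, -0.13 to 0.54 for C1qb and -0.71 to 1.64 for Tyrobp in Cd38-/- against Cd38+/+, and -0.21 to 0.0078 for P2ry12, -0.17 to 0.30 for C1qa, -0.51 to 0.035 for C1qb and -0.070 to 0.55 for Tyrobp between the mutant genotypes. For Csf1r and Tyrobp against Cd38+/+ the sign turned without Cd38+/+ replicate 3.

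As a ratio of medians the members stood at 0.271% of the astrocyte list in Cd38+/+, 0.383% in Cd38+/- and 0.449% in Cd38-/-, against means of 0.120%, 0.136% and 0.168% from the sums, which ranged from 0.0979% to 0.152%, 0.123% to 0.143% and 0.140% to 0.180% without single libraries. The Tmem119 to Gja1 difference of Cd38-/- against Cd38+/+ was 4.30 with a pseudocount of 0.1 (exact permutation p = 0.0119, unadjusted) and 1.18 to 1.71 without single libraries. Without Cd38-/- replicate 2 it was 1.18 (exact permutation p = 0.0179, unadjusted). Both p are the smallest that these numbers of libraries allow. The Cd38+/+ ratio is set by the pseudocount, so neither p adds support. Without single libraries the difference of Cd38+/- against Cd38+/+ was 1.31 to 1.83, and that of Cd38-/- against Cd38+/- was -0.46 to 0.24. Over the 36 member pairs the median r was 0.641, and 0.278 without the 2 libraries farthest from the median.

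Replicate numbers did not pair the libraries: the correlation of deviations between same-numbered libraries ran from -0.317 to 0.501 over the 3 comparisons, so the replicate block shares only numbers. Depth limits are unknown, and members listed at 0 cannot be called absent.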

Other observations

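The Cd38+/+ libraries listed different members at 0. Replicate 1 listed Tmem119, P2ry12 and Cx3cr1 at 0, replicate 2 these 3 and Aif1, and replicate 3 all members other than P2ry12 and C1qb. Among the 46 further microglial and macrophage genes they listed 18, 24 and 25 at 0. Adgre1, which encodes the macrophage antigen F4/80, was listed at 0 in replicates 1 and 2 and had 6.81 TPM in replicate 3, the library with the fewest members above 0; its highest value in the other genotypes was 1.78 TPM. Adgre1 was picked out after its values were seen.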
